A study of Homo sapiens with 6 samples.

Results

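HT29 is an established human colorectal adenocarcinoma line with an epithelial character. The comparison described here set HT29 cells with a stable knockdown of BZW2 beside HT29 cells with a stable non-targeting hairpin, and it asked which genes other than those of the cell cycle and of stress responses differed between them. It used 2 of the 6 libraries of the study, chosen by line and hairpin, and the other 4 libraries were the same pair in HCT116 and in SW480. The HCT116 libraries are labelled HCT116WT, and the hairpin against BZW2 is labelled SH2 in every line. In the BZW2 shRNA cells a lentivirus delivered a short hairpin RNA (shRNA) against BZW2, and in the non-targeting shRNA cells it delivered a non-targeting hairpin. Both populations were selected with puromycin at 1 µg/ml, so each carried an integrated virus and had passed through the drug. Total RNA was sequenced in 1 library per hairpin. There was thus no spread between replicates and no test, and a second hairpin against BZW2 in HT29 was not analysed here.

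The BZW2 shRNA library held 8968603 reads over the listed genes, against 9317444 in the non-targeting shRNA library. A gene counted as measured where the higher library had at least 5 CPM (reads scaled to a common library size), which 10104 of the 11411 genes listed for HT29 reached. Ratios are log2 of the BZW2 shRNA level over the non-targeting shRNA level after scaling for depth, with a prior count of 2 reads, and percentages give the BZW2 shRNA level relative to the non-targeting one with an exact 95% interval. These intervals cover counting error only and say nothing of how repeat cultures would vary. Of 14 markers of intestinal epithelium, 6 were listed, among them EPCAM, KRT8 and KRT18, with 81006 summed reads in the BZW2 shRNA library and 97008 in the non-targeting shRNA library. CDX2, a transcription factor that defines intestinal epithelium, was low in both, at 22 and 40 reads. Of the other intestinal markers, 7 had no row, among them VIL1, CDX1, LGALS4 and HNF4A, and CDH17 was blank in HT29. None of the markers of leukocytes, fibroblasts or endothelium was listed, and of the neuronal markers SYP alone appeared, with 18 reads in the BZW2 shRNA library and 11 in the non-targeting shRNA library. Since intestinal markers were missing too, a marker that was not listed does not show that a cell type was absent. In bulk RNA of this kind, fewer cells that express a gene and less RNA of it per cell cannot be told apart.

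BZW2 encodes a relative of the translation factor eIF5 and is studied as a regulator of start codon choice. The gene (ENSG00000136261) lies on chromosome 7 at 16646131 to 16706523 (GRCh38). It had 133 reads in the BZW2 shRNA library, against 1590 in the non-targeting shRNA library, so that 8.69% of the level was left (7.22 to 10.4%). Its close paralog BZW1 went the other way, with 3592 reads in the BZW2 shRNA library and 2771 in the non-targeting shRNA library (log2 ratio 0.43). EIF5, which shares their C-terminal domain, had 1590 reads in the BZW2 shRNA library and 3664 in the non-targeting shRNA library (log2 ratio −1.15). BZW2 and EIF5 were the only ones of 53 measured translation initiation and elongation factors with a 2-fold difference, and the median of that list was 0.12.

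By list median, the widest group difference outside the cell cycle and stress genes lay in the interferon system, which was lower with BZW2 shRNA. Cells sense foreign or misplaced nucleic acid with cytosolic helicases such as RIG-I and MDA5, and type I interferon then acts through JAK1 and TYK2 on a transcription factor complex that includes STAT2 and IRF9. This complex binds the interferon-stimulated response element (ISRE) in promoters and raises the transcription of antiviral effectors. Much of the same machinery raises the antigen presentation genes.

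The promoters of 5 interferon-induced genes are printed to show what these genes share upstream. SAMD9, IFIT1, MX1 and DDX60 stood among the lowest genes with BZW2 shRNA, and LGALS3BP is set beside them as a member with the motif that was not lower. Each sequence is the RefSeq promoter of GRCh38.p14, 5′ to 3′ on the strand of its gene, from 250 bases before to 50 bases after the annotated start. Capitals mark every match of the ISRE core GAAANNGAAA, searched on both strands, so that TTTCNNTTTC is the same motif on the other strand. The regions are chr7:93117930-93118229 on the minus strand for SAMD9, chr10:89392373-89392672 on the plus strand for IFIT1, chr21:41420308-41420607 on the plus strand for MX1, chr4:168318703-168319002 on the minus strand for DDX60 and chr17:78979874-78980173 on the minus strand for LGALS3BP.
SAMD9: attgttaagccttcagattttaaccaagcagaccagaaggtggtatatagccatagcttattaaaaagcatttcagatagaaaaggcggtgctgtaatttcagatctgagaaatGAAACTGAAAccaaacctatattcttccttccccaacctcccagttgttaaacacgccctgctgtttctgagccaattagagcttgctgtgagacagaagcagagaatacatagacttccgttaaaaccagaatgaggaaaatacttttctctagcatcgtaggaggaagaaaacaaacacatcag
IFIT1: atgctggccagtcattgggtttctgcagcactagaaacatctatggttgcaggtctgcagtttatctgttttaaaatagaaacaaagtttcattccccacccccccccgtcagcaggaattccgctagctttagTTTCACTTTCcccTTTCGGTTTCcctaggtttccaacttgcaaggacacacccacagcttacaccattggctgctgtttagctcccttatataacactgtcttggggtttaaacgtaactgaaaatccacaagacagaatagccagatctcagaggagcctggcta
MX1: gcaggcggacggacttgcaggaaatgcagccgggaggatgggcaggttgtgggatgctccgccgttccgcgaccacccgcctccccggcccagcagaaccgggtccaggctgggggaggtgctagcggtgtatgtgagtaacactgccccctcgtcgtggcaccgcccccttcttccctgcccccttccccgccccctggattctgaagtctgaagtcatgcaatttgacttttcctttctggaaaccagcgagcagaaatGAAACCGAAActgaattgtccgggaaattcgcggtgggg
DDX60: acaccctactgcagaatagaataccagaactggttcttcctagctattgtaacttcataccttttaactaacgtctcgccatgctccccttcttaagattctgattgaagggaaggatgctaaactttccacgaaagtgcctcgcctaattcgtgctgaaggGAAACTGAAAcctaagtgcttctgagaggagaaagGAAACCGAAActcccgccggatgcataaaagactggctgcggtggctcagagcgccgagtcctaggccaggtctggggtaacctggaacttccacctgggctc
LGALS3BP: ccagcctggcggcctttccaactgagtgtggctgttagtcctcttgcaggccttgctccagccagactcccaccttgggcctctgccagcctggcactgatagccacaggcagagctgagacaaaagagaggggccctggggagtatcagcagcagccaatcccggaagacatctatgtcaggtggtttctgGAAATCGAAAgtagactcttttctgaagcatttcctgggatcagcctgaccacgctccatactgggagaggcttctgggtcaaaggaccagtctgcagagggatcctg

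In SAMD9 the single match begins 136 bases before the start, and in LGALS3BP it begins 58 bases before the start. IFIT1 holds a pair of matches on the minus strand, beginning 116 and 103 bases before the start and separated by a few bases. DDX60 holds a pair on its own strand at 88 and 53 bases before the start. In MX1 the one match lies just after the annotated start. Over all 27305 RefSeq promoters of this length the motif occurred in 3.65%, and over the 8198 measured genes that matched a promoter in 2.62%. Of 47 interferon-induced effectors with a promoter 29 held it (61.7%), and of 13 MHC class I genes 9 did (69.2%). Among the effectors at least 2-fold lower with BZW2 shRNA 22 of 31 held the motif (71.0%), and among the others 7 of 16 did (43.8%). Among genes outside the interferon and MHC lists the motif occurred in 7 of 464 lower ones (1.51%) and in 5 of 320 higher ones (1.56%). A match describes the letters of the window and not binding by a factor.

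Over all 10104 measured genes 623 were at least 2-fold lower with BZW2 shRNA (6.17%) and 378 at least 2-fold higher (3.74%), and the median log2 ratio was 0.02 with an SD over genes of 0.64. The 642 genes of the cell cycle, histone and stress lists held 65 of the lower genes (10.1% of those lists) and 156 of the higher genes (24.3%). The list of mitosis genes had a median of 0.88 and the list of ATF4 targets one of −0.70, and these lists were set aside. Of the remaining 9462 genes 558 were lower (5.90%) and 222 higher (2.35%). Counting only genes whose whole interval lay past 2-fold left 375 lower (3.71%) and 181 higher (1.79%) of all measured genes. Among the 25 lowest genes outside the set-aside lists, ranked by the interval bound nearest no difference, 15 belonged to the interferon or MHC class I lists, and none of the 25 highest did. Those lists had 23 (sensing and signalling), 59 (effectors) and 16 (MHC class I) measured members. They were chosen with earlier results of these data known, so the 15 are a description only.

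**Figure D1:**
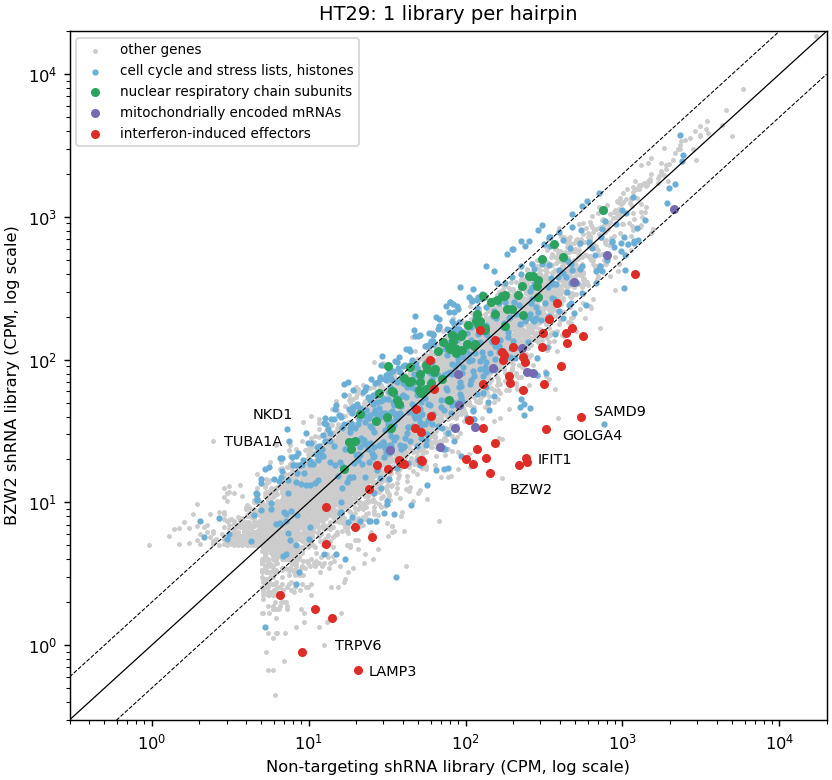
Level of each measured gene in the BZW2 shRNA library (vertical axis, CPM, log scale) against the non-targeting shRNA library (horizontal axis, CPM, log scale), 1 library per hairpin. The solid line marks equal levels and the dashed lines a 2-fold difference; most interferon-induced effectors (red) lie below the lower dashed line, mitochondrially encoded mRNAs (purple) lie below the solid line, and most nuclear respiratory chain genes (green) lie above it.

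Sensors and several transcription factors of the pathway were lower, by less than the lowest effectors. RIGI, which encodes the RNA sensor RIG-I, had 250 reads in the BZW2 shRNA library and 1591 in the non-targeting shRNA library, or 16.3% of the level (14.2 to 18.7%). IFIH1, which encodes the sensor of long double-stranded RNA MDA5, had 158 and 995 reads in the same order and a log2 ratio of −2.59, and DHX58, their regulator LGP2, stood at −1.65. MAVS, the mitochondrial adaptor to which both sensors signal, was nearly equal, with 681 reads in the BZW2 shRNA library and 700 in the non-targeting shRNA library. The sensors were thus low where their adaptor was not.

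IRF9, the DNA-binding subunit of the complex that acts on the ISRE, had 17 reads in the BZW2 shRNA library, against 55 in the non-targeting shRNA library, a small count with a wide interval (17.5 to 56.1%). STAT2, another subunit of that complex, had 187 reads in the BZW2 shRNA library and 308 in the non-targeting shRNA library (log2 ratio −0.66). IRF9 was past the 2-fold line and STAT2 was not. IRF7, the factor that amplifies interferon production, had 352 reads in the BZW2 shRNA library and 1191 in the non-targeting shRNA library (log2 ratio −1.70). IRF1, a factor of the interferon gamma response, stood at −1.01 with 554 reads in the BZW2 shRNA library and 1164 in the non-targeting shRNA library. USP18, a negative regulator that is itself induced by interferon, had 56 reads in the BZW2 shRNA library and 317 in the non-targeting shRNA library (log2 ratio −2.41).

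The receptors and kinases differed less and in both directions. IFNAR1, a chain of the type I receptor, had a log2 ratio of −0.52, and IFNAR2, its partner chain, one of 0.21. The kinase gene JAK1 stood at −0.73, with 861 reads in the BZW2 shRNA library and 1488 in the non-targeting shRNA library, and TYK2, the kinase that works beside it, at 0.98, with 324 and 170 reads in the same order. IRF3, the factor that the sensors activate, was at 0.54. In all, 8 of 23 measured sensing and signalling genes were at least 2-fold lower (34.8%, beside 6.17% of all genes) and 0 at least 2-fold higher. Their median was −0.64.

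The induced effectors were lower in nearly every case. Of 59 measured members 39 were at least 2-fold lower with BZW2 shRNA and 0 at least 2-fold higher, where 6.17% and 3.74% of all genes were, and 57 had a ratio below 0. Their median was −1.42, beside 0.02 over all genes. The lowest was LAMP3, an interferon-induced protein of the lysosome membrane, with 6 reads in the BZW2 shRNA library and 192 in the non-targeting shRNA library (3.25%, 1.18 to 7.19%). SAMD9, an inhibitor of poxvirus replication, had 354 reads in the BZW2 shRNA library and 5086 in the non-targeting shRNA library (7.23%, 6.47 to 8.05%). IFIT1, which binds viral RNA, had 171 reads in the BZW2 shRNA library and 2284 in the non-targeting shRNA library (7.77%, 6.62 to 9.09%). These genes were lower by as much as BZW2 itself, and the intervals of SAMD9, IFIT1 and BZW2 overlap.

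MX1, the GTPase that blocks influenza virus, had 163 reads in the BZW2 shRNA library and 2051 in the non-targeting shRNA library (log2 ratio −3.58). DDX60, a helicase that assists RIG-I, had 184 and 2249 reads in the same order, and its neighbour and paralog DDX60L had 185 and 1266. IFI6, a small protein of the endoplasmic reticulum, had 293 reads in the BZW2 shRNA library and 3041 in the non-targeting shRNA library, and IFI44 had 145 and 1339. Genes of the ISG15 system were lower as well. ISG15, the ubiquitin-like modifier, had 1500 reads in the BZW2 shRNA library and 4416 in the non-targeting shRNA library (35.3%, 33.2 to 37.4%), its conjugating enzyme UBE2L6 had 8 and 85 (log2 ratio −3.07), and the ligases HERC5 and HERC6 stood at −2.49 and −2.58. EIF2AK2, which encodes the double-stranded RNA kinase PKR, had 1373 reads in the BZW2 shRNA library and 4053 in the non-targeting shRNA library (log2 ratio −1.51). IFITM1, a membrane protein that blocks virus entry, had 14 reads in the BZW2 shRNA library and 131 in the non-targeting shRNA library (11.1%, 5.90 to 19.3%), while its near relatives IFITM3 and IFITM2 had log2 ratios of −1.52 and −0.48. Reads that these close copies share may have been split between them by the counting.

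The weakest members show where the group ended. ADAR, the RNA editing enzyme, stood at −0.62 and BST2, which tethers budding virus, at −0.71. LGALS3BP, whose promoter match is printed above, had 1453 reads in the BZW2 shRNA library and 1149 in the non-targeting shRNA library (log2 ratio 0.39). CNP, a phosphodiesterase of myelin that interferon also raises, was at 0.75. After the ratios were adjusted for transcript length and GC content, 43 of the 59 effectors were at least 2-fold lower and the median was −1.39. Of the interferons themselves IFNE, a type I interferon of epithelia, was listed but under 5 CPM in both libraries, with 2 reads in the BZW2 shRNA library and 40 in the non-targeting shRNA library (5.19%, 0.608 to 20.02%), and it was looked up after the other values were seen. IFNB1, IFIT3, OAS1 and MX2 were not analysed here.

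Among antigen presentation genes 5 of 16 measured members were at least 2-fold lower with BZW2 shRNA (31.25%, beside 6.17% of all genes) and 0 higher. NLRC5, the activator of MHC class I transcription, had 4 reads in the BZW2 shRNA library and 57 in the non-targeting shRNA library (7.29%, 1.92 to 19.7%). TAP1 and TAP2, the chains of the peptide transporter, had log2 ratios of −1.20 and −1.32, with 171 and 220 reads in the BZW2 shRNA library and 411 and 573 in the non-targeting shRNA library. Among the heavy chains HLA-B stood at −1.40, HLA-F at −1.38, HLA-C at −0.95 and HLA-E at −0.93. B2M, the light chain that all of them need, had 7228 reads in the BZW2 shRNA library and 10941 in the non-targeting shRNA library (68.6%, 66.6 to 70.7%). TAPBP, the tapasin that loads peptides, and PSME1, a proteasome activator, were at −0.03 and −0.02. Of the 16 members 15 had a ratio below 0, and the median was −0.69. HLA genes are near-identical to each other, so the split of reads among them is uncertain.

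**Figure D2:**
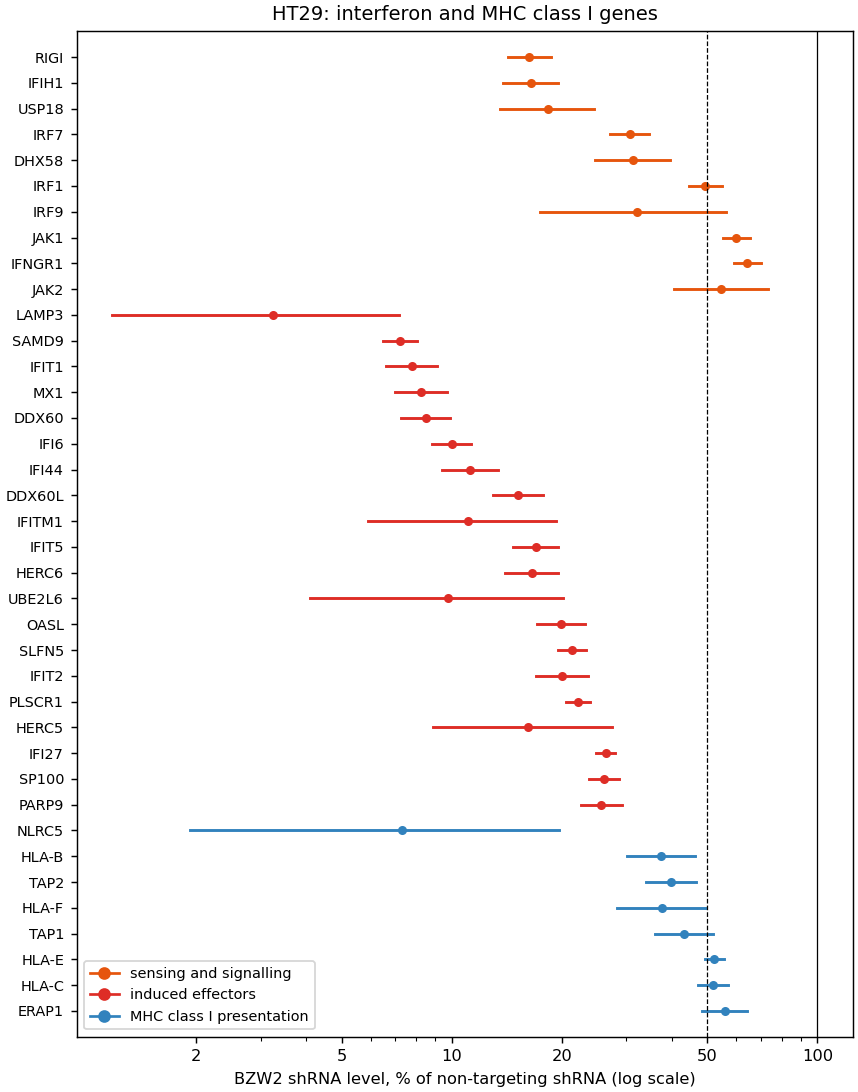
Level in the BZW2 shRNA library as a percentage of the non-targeting shRNA library (log scale) for sensing and signalling genes (orange), induced effectors (red) and MHC class I genes (blue), with bars for the exact 95% counting interval, 1 library per hairpin. The genes shown are among those of each list with the lowest interval bound; the solid line marks equal levels and the dashed line 50%, and LAMP3 lies lowest at 3.25%.

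Genes of the NF-kappaB response, a partner pathway in inflammation, differed in part. IL6R, the receptor of interleukin 6, had 57 reads in the BZW2 shRNA library and 379 in the non-targeting shRNA library (15.6%, 11.6 to 20.7%). BIRC3, an apoptosis inhibitor induced by NF-kappaB, had 61 and 317 reads in the same order (log2 ratio −2.29), and CCL20, a chemokine of mucosal epithelium, had 12 and 78 (−2.46). NFKBIZ stood at −1.01 and TRAF1 at −1.73. CXCL8, the neutrophil chemokine, and NFKB1, a subunit of the factor, were at 0.67 and 0.56. Together 5 of 22 measured members were at least 2-fold lower (22.7%, beside 6.17% of all genes) and 0 higher. The median was −0.29, and members at least 2-fold lower were a minority of the list.

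Beyond immune genes, several of the lowest genes have long transcripts, and those named next have little GC. GOLGA4, a coiled-coil tether of transport vesicles at the Golgi, had 348 reads in the BZW2 shRNA library and 3643 in the non-targeting shRNA library (9.92%, 8.86 to 11.1%). CEP290, a protein of the ciliary transition zone, had 32 reads in the BZW2 shRNA library and 387 in the non-targeting shRNA library (log2 ratio −3.46). ESF1, a nucleolar factor of ribosomal RNA processing, had 66 and 629 reads in the same order (−3.16). AKAP9, a scaffold of the Golgi and centrosome, had 560 reads in the BZW2 shRNA library and 3484 in the non-targeting shRNA library (−2.58), and ANKRD12, an ankyrin repeat cofactor, had 253 and 1517 (−2.52). Their longest transcripts have a GC content of 39.4% for GOLGA4, 35.9% for CEP290, 35.4% for ESF1, 38.2% for AKAP9 and 35.6% for ANKRD12, against a median of 47.5% over all measured genes.

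GOLGA4 led to a look at its relatives, a list chosen after its values were seen. Of 10 golgins and related Golgi coiled-coil proteins all had a ratio below 0, 5 were at least 2-fold lower (50%, beside 6.17% of all genes) and the median was −0.97. GOLGA4 itself, at −3.33, is 1 of the 10 and 1 of the 5, so these figures include the value that prompted the list. GCC2 had 658 reads in the BZW2 shRNA library and 3159 in the non-targeting shRNA library (log2 ratio −2.21), TRIP11, which encodes GMAP210, had 135 and 648 (−2.19), GOLGB1, which encodes giantin, 1751 and 5410 (−1.57), and TMF1 345 and 957 (−1.41). GOLGA2, which encodes GM130, and GOLGA3 were at −0.39 and −0.09, and these have GC contents of 54.8% and 54.0%. The lower golgins have GC contents of 36.1% (TMF1) to 42.0% (GOLGB1). After adjustment for length and GC content 4 of the 10 were at least 2-fold lower, the median was −0.69, and GOLGA4 stood at −2.95. EEA1, a coiled-coil tether of early endosomes, had 138 reads in the BZW2 shRNA library and 748 in the non-targeting shRNA library (−2.37) and was likewise picked out after its value was seen.

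The relation to base composition ran through the whole table. In the quintile of genes with the lowest GC content 14.6% were at least 2-fold lower with BZW2 shRNA and 1.29% at least 2-fold higher, while in the quintile with the highest GC content 2.97% were lower and 6.23% higher. In the quintile of longest transcripts 10.2% were lower and 1.53% higher, and in the quintile of shortest transcripts 4.45% were lower and 5.68% higher. Across 10103 genes of this 1 pair of libraries Spearman's rho of the ratio was 0.335 with GC content and −0.243 with length, given as a description over genes that share both libraries. Removing a smooth trend on both left 525 lower genes (5.20%) and 331 higher ones (3.28%). Genes with ZNF symbols, mostly zinc finger genes, had a median GC content of 44.0%. Of 284 members 37 were at least 2-fold lower (13.03%, beside 6.17% of all genes) and 0 higher, and the median was −0.28. After the adjustment 22 of the 284 were lower and 2 higher, with a median of −0.25. The adjusted shares over all genes were 5.20% lower and 3.28% higher. The part of length and GC content in any single gene's ratio was not tested.

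**Figure D3:**
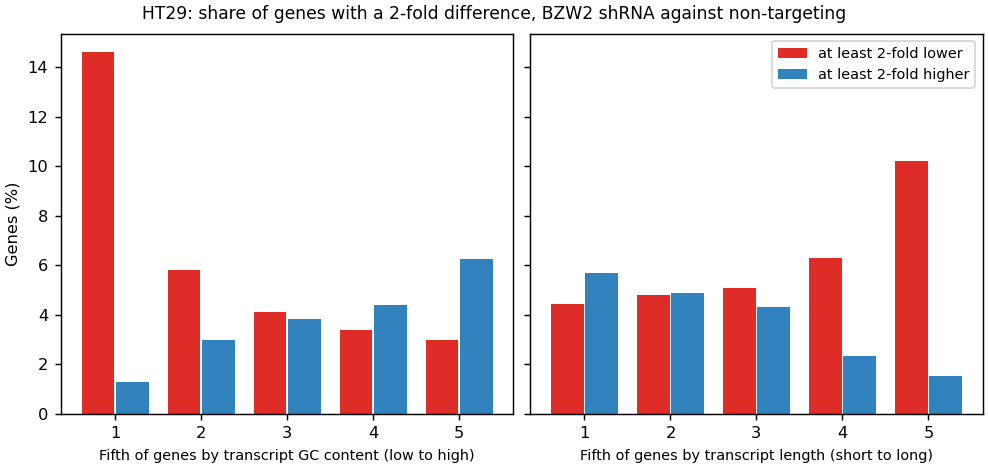
Share of measured genes at least 2-fold lower (red) or at least 2-fold higher (blue) with BZW2 shRNA against non-targeting shRNA, in quintiles of GC content (left) and of length (right) of the longest transcript, 1 library per hairpin. The share of lower genes is 14.6% in the quintile of lowest GC content and 2.97% in that of highest, and the share of higher genes runs the other way.

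A pair of genes of the intestinal epithelium stood low. TRPV6, the calcium uptake channel of enterocytes, had 9 reads in the BZW2 shRNA library and 117 in the non-targeting shRNA library (7.99%, 3.56 to 15.7%). CYP3A5, a drug-metabolising cytochrome of gut and liver, had 691 reads in the BZW2 shRNA library and 3039 in the non-targeting shRNA library (23.6%, 21.7 to 25.7%). These were the only members of the 23 measured enterocyte and brush border genes past 2-fold. They make 8.70% of the list, near the 6.17% of all genes that were lower. The list had a median of −0.33 (−0.15 without the filter on low values), and 18 members had a ratio below 0. DPP4, a peptidase of the brush border, stood at −0.66 and EZR, which encodes the microvillus protein ezrin, at −0.49. LINC03040, a gene on chromosome 6 with a GC content of 59.6%, had 15 reads in the BZW2 shRNA library and 150 in the non-targeting shRNA library, and GPR22, an orphan receptor gene with a GC content of 33.7%, had 13 and 122.

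The higher genes outside the set-aside lists were fewer and differed by less, apart from TUBA1A. TUBA1A, an alpha tubulin, had 242 reads in the BZW2 shRNA library and 23 in the non-targeting shRNA library, a 10.9-fold difference (7.11 to 17.6). Its close copies were higher too, with log2 ratios of 2.05 for the pseudogene TUBA5P, 1.44 for TUBA1B and 0.69 for TUBA1C. TUBA1B, by reads the main copy, had 2143 reads in the BZW2 shRNA library and 817 in the non-targeting shRNA library. The sources used here do not say how reads were shared among these copies, so the size of the TUBA1A ratio is uncertain. TUBA1B and TUBA1C stand on the set-aside list of mitosis genes and are given for their likeness in sequence. Several other genes among the 25 highest have known parts in the cell cycle although they were on none of the lists, such as SKP2, the F-box protein that marks p27 for destruction, with 1303 reads in the BZW2 shRNA library and 422 in the non-targeting shRNA library (log2 ratio 1.68), and CENPX, a centromere protein, with 808 and 277 (1.59).

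Other high genes fall outside the cycle. CSPG4, the proteoglycan NG2 of the cell surface, had 866 reads in the BZW2 shRNA library and 244 in the non-targeting shRNA library, a 3.69-fold difference (3.19 to 4.27). CASP6, an executioner caspase, had 363 and 97 reads in the same order (log2 ratio 1.94). SERPINB5, which encodes maspin, had 595 reads in the BZW2 shRNA library and 208 in the non-targeting shRNA library (1.56). SHMT1, the cytosolic enzyme that passes one-carbon units from serine to folate, stood at 1.67, HSD17B10, a mitochondrial dehydrogenase that is also part of mitochondrial RNase P, at 1.67, and TEAD2, a DNA-binding partner of YAP, at 1.63. IMPA2, an inositol monophosphatase, had 463 reads in the BZW2 shRNA library and 139 in the non-targeting shRNA library (1.78). TRIB2, a pseudokinase, CORO1A, an actin regulator, NES, which encodes the intermediate filament nestin, and MAOB, a monoamine oxidase, were 3.80-fold to 4.63-fold higher on 13 to 29 reads in the non-targeting shRNA library.

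Wnt target and stem cell genes split. NKD1, a feedback inhibitor that Wnt signalling induces, had 327 reads in the BZW2 shRNA library and 86 in the non-targeting shRNA library, a 3.95-fold difference (3.10 to 5.07). The crypt receptors EPHB3 and EPHB2 had 142 and 92 reads in the BZW2 shRNA library, against 44 and 28 in the non-targeting shRNA library, and both stood at a log2 ratio of 1.70. MYB, a transcription factor of colon crypt progenitors, had 405 reads in the BZW2 shRNA library and 131 in the non-targeting shRNA library (1.67), and SOX9 stood at 0.89. AXIN2, the most used readout of the pathway, was at 0.32 and MYC at −0.41. JAG1, a Notch ligand, had 457 reads in the BZW2 shRNA library and 1424 in the non-targeting shRNA library (−1.58), and the Notch target gene HES4 and the NKD1 paralog NKD2 were at −1.33 and −1.09, while LFNG, a glycosyltransferase that modifies Notch, was at 1.59. The list had 4 of 42 members at least 2-fold higher (9.52%, beside 3.74% of all genes) and 3 at least 2-fold lower (7.14%, beside 6.17%). Its median was 0.00.

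Genes of the respiratory chain had medians on opposite sides of 0, according to the genome that encodes them. All 13 mitochondrially encoded mRNAs had a ratio below 0, with 5 at least 2-fold lower (38.5%, beside 6.17% of all genes) and a median of −0.92. MT-ND5 had 726 reads in the BZW2 shRNA library and 2517 in the non-targeting shRNA library (30.0%, 27.5 to 32.5%), MT-ND6, the one mRNA from the light strand, had 304 and 1068, and MT-ND4 739 and 2286, all subunits of complex I. MT-CO1, the catalytic subunit of complex IV, had 10165 reads in the BZW2 shRNA library and 19985 in the non-targeting shRNA library (log2 ratio −0.92), and MT-ND3 was the least different at −0.17. The complex I mRNAs therefore spanned the whole range of this list. After adjustment for length and GC content the median was −1.25, with 9 at least 2-fold lower.

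Most nuclear subunits had ratios above 0 that stayed under 2-fold. Of 75 measured genes 70 had a ratio above 0 and the median was 0.53, while 3 were at least 2-fold higher, a share near the 3.74% of all genes, and 0 were lower. ATP5MC1, a c-ring subunit of ATP synthase, had 814 reads in the BZW2 shRNA library and 300 in the non-targeting shRNA library (2.82-fold, 2.47 to 3.23). NDUFS5 and NDUFB10, accessory subunits of complex I, stood at 1.09 and 1.03, and NDUFA5 was the lowest at −0.60. Most of these transcripts are short, and after the adjustment the median was 0.31 and 1 was at least 2-fold higher. TFAM, which packages and transcribes mitochondrial DNA, was at 0.35, POLRMT, the mitochondrial RNA polymerase, at −0.05, and LRPPRC, which stabilises mitochondrial mRNAs, at −0.65 with 3954 reads in the BZW2 shRNA library and 6457 in the non-targeting shRNA library; these 3 were chosen after their values were seen. Tricarboxylic acid cycle and glutamine genes had a median of 0.25, with 0 of 33 past 2-fold in either direction, and IDH2, the mitochondrial isocitrate dehydrogenase, stood at 0.85 while its cytosolic counterpart IDH1 stood at −0.75.

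**Figure D4:**
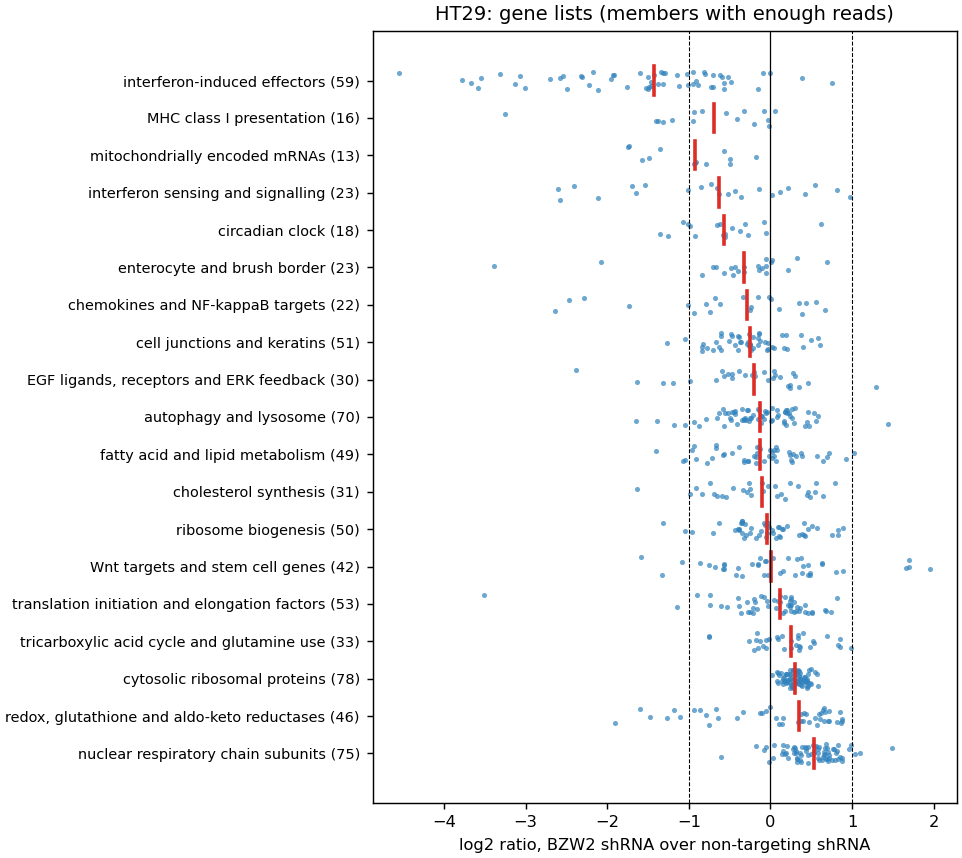
Log2 ratio of BZW2 shRNA over non-targeting shRNA for the measured members of gene lists in HT29, 1 library per hairpin. Points are genes, red bars are list medians, numbers of members are in parentheses and dashed lines mark a 2-fold difference; the medians run down to −1.42 for interferon-induced effectors and up to 0.53 for nuclear respiratory chain subunits.

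Redox and metal genes held a few strong single differences against a list that lay above 0. GCLC, the rate-limiting subunit of glutathione synthesis, had 474 reads in the BZW2 shRNA library and 1497 in the non-targeting shRNA library (log2 ratio −1.60). SLC11A2, the iron importer DMT1, had 776 and 2238 reads in the same order (−1.47), and FTH1, the ferritin heavy chain that stores iron, had 1754 and 4409 (−1.27). NQO1, a textbook target of NRF2, was in contrast at 0.65, and PRDX1, a peroxide-clearing enzyme, at 0.88. In all 6 of 46 members were at least 2-fold lower, 0 higher, and the median was 0.36, or 0.19 after adjustment for length and GC content. SLC30A1, the exporter that zinc induces through MTF1, had 304 reads in the BZW2 shRNA library and 1226 in the non-targeting shRNA library (−1.95). It was the only one of 18 metallothionein and zinc transporter genes past 2-fold. That is 5.56% of the list, near the 6.17% of all genes that were lower. The metallothionein gene MT1E stood at 0.39.

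Growth factor genes were mixed. DUSP5, a phosphatase that ERK induces to restrain itself, had 153 reads in the BZW2 shRNA library and 837 in the non-targeting shRNA library (log2 ratio −2.38). The insulin receptor gene INSR and IRS2, its adaptor, stood at −1.20 and −1.64, and the ligands HBEGF, EREG and AREG at −1.31, −0.99 and −0.67. FGFR4, a receptor of fibroblast growth factors, had 315 reads in the BZW2 shRNA library and 132 in the non-targeting shRNA library (1.30). Of 30 members 4 were at least 2-fold lower (13.3%, beside 6.17% of all genes) and 1 at least 2-fold higher (3.33%, beside 3.74%). The median was −0.20. Clock genes leaned lower, with 17 of 18 below 0, 4 at least 2-fold lower (22.2%, beside 6.17% of all genes) and a median of −0.57. Among these the repressors PER3 and NFIL3 stood at −1.26 and −1.36, and CLOCK, a core activator, at −0.55.

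Lipid, autophagy and lysosome genes showed single differences past 2-fold. The counts in these lists lay near or under the shares of all genes (6.17% lower and 3.74% higher). STARD4, which moves sterols between membranes, was the only one of 31 cholesterol genes past 2-fold, at −1.63, while FDPS, an enzyme of isoprenoid synthesis, stood at 0.64. In fatty acid metabolism 3 of 49 genes were at least 2-fold lower and 1 at least 2-fold higher. ACSS2, which makes acetyl-CoA from acetate, was at −1.40 and PLIN2, the coat protein of lipid droplets, at −1.07, whereas ABHD5, an activator of lipid droplet breakdown, was at 1.03. SCD, the stearoyl-CoA desaturase, had 7344 reads in the BZW2 shRNA library and 14620 in the non-targeting shRNA library (−0.94). Autophagy and lysosome genes had 4 of 70 at least 2-fold lower and 1 higher, with RB1CC1, a scaffold that starts autophagosomes, at −1.65, the cargo receptor gene OPTN at −1.40 and GLA, a lysosomal galactosidase, at 1.44.

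For epithelial identity genes the counts past 2-fold were small. Over lists of this size they lie near the shares of all genes (6.17% lower and 3.74% higher), apart from the S100 and annexin list. Among 51 measured cell junction and keratin genes 2 were at least 2-fold lower, among them the claudin gene CLDN12 at −1.26, and 40 had a ratio below 0. CDH1, which encodes E-cadherin, had 2535 reads in the BZW2 shRNA library and 4529 in the non-targeting shRNA library (−0.78). None of 16 mucin and secretory lineage genes and none of 13 HOX genes differed by 2-fold in either direction. Among S100 proteins and annexins S100A4 and S100A13 were higher, at 1.35 and 1.30. In the TGF-beta, YAP and matrix list SMAD4, the common mediator of the pathway, had 133 reads in the BZW2 shRNA library and 290 in the non-targeting shRNA library (−1.06), CCN2, a YAP target, had 15 and 47 (−1.48), and the median was −0.04. HT29 is known as a line without a working SMAD4 protein.

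Genes of the translation apparatus, the field in which BZW2 acts, moved by little. All 78 cytosolic ribosomal protein genes had a ratio above 0, yet none reached 2-fold: the range was 0.02 to 0.58 and the median 0.31. The median was 0.13 after adjustment for length and GC content. RPL3, a protein of the large subunit, had 39165 reads in the BZW2 shRNA library and 29057 in the non-targeting shRNA library (0.49). Of 50 ribosome biogenesis genes NOP58, a core protein of box C/D snoRNPs, stood at −1.32 and POLR3G, a subunit of RNA polymerase III, at −1.05, and the list had a median of −0.05.

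The same comparison in HCT116 and SW480 shares no library with HT29 and shows which of these differences stood in other lines. It was made on log2 of the deposited value plus 1, over the 9953 measured genes listed in all 3 lines, and with 1 library per hairpin and line no difference between lines was tested. On that scale, and outside the set-aside lists, 501 of 9314 genes were at least 2-fold lower in HT29 (5.38%) and 249 at least 2-fold higher (2.67%). In HCT116 28.0% of the same genes were lower and 26.6% higher, a spread far wider than in HT29, and in SW480 5.13% were lower and 3.35% higher. The genes lower in both HT29 and SW480 numbered 86, which is 17.2% of the lower genes of HT29 and 18.0% of those of SW480. Those lower in both HT29 and HCT116 numbered 363, which is 72.5% of the lower genes of HT29 and 13.9% of those of HCT116. Of the higher genes of HT29 42 were also higher in SW480 (16.9% of the HT29 genes, 13.5% of the SW480 genes), and 117 in HCT116 (47.0% and 4.73%).

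The interferon-induced effectors were not lower in every line. The 57 effectors listed in all lines had a median of −1.35 in HT29, −0.98 in HCT116 and 0.55 in SW480, with a ratio below 0 for 54 in HT29, 37 in HCT116 and 18 in SW480. IFIT1 stood at −3.65 in HT29, −2.68 in HCT116 and 2.55 in SW480, and SAMD9 at −3.76, −4.99 and 1.82 in the same order of lines. IFITM1 was lower in all, at −3.06 in HT29, −3.65 in HCT116 and −2.28 in SW480. LAMP3, the lowest effector in HT29, was also below 0 in all, at −4.71 in HT29, −6.20 in HCT116 and −0.85 in SW480. For the MHC class I list the medians were −0.66 in HT29, −0.23 in HCT116 and 0.27 in SW480. NLRC5, the lowest member of that list in HT29, stood at −3.46 in HT29, 1.58 in HCT116 and 0.61 in SW480.

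Other groups differed between the lines in other ways. The golgins had medians of −0.95 in HT29, −2.27 in HCT116 and −0.25 in SW480, and GOLGA4 stood at −3.30, −2.82 and −0.47. Mitochondrially encoded mRNAs had medians of −0.89 in HT29, −1.66 in HCT116 and −0.24 in SW480, and nuclear respiratory chain subunits 0.56, 0.34 and 0.42, above 0 in each line. The cytosolic ribosomal proteins, at 0.33 in HT29, were at −0.68 in HCT116 and −0.44 in SW480. TRPV6 was lower in all, at −3.48 in HT29, −5.40 in HCT116 and −2.93 in SW480. CSPG4, EPHB3 and EPHB2 were at 1.90, 1.75 and 1.76 in HT29 and at −0.41, −1.06 and −0.51 in SW480. In HCT116 CSPG4 was at 0.13. Of the 25 lowest HT29 genes 23 were listed in HCT116, where 19 were at least 2-fold lower, and in SW480 5 of the 25 were at least 2-fold lower and 7 at least 2-fold higher. BZW2, the target of the hairpin, is counted among the lower genes in each line. Over the 9314 genes outside the set-aside lists 28.0% were lower in HCT116, and in SW480 5.13% were lower and 3.35% higher.

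**Figure D5:**
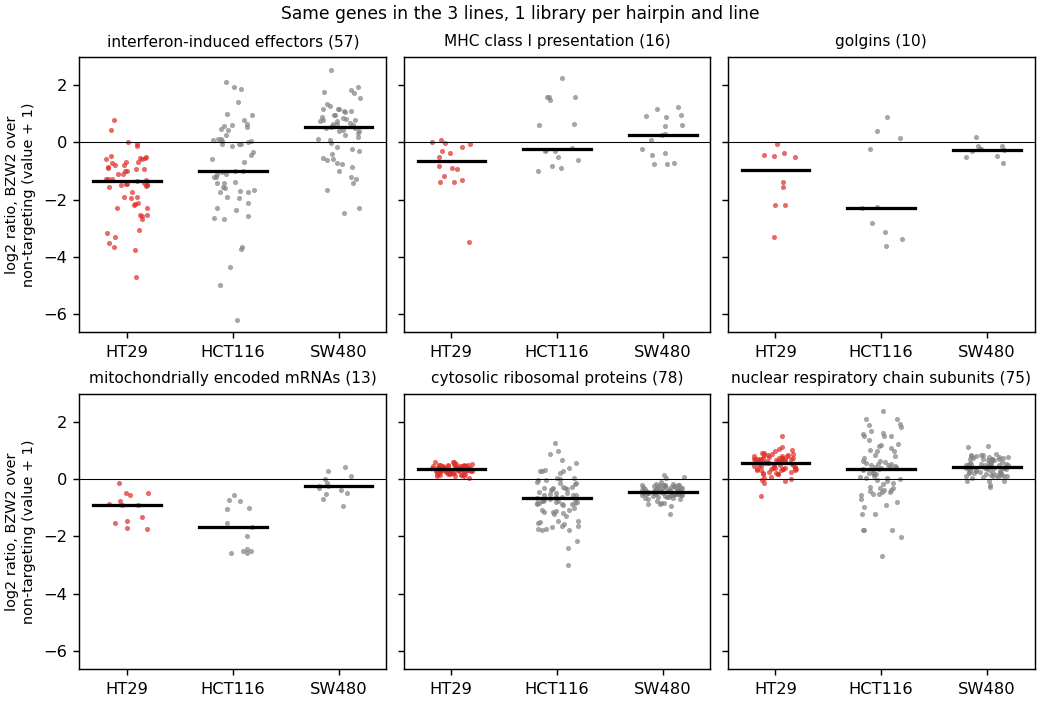
Log2 ratio of BZW2 shRNA over non-targeting shRNA (deposited value plus 1) for the same genes in HT29 (red), HCT116 and SW480 (grey), in 6 gene lists, with 1 library per hairpin and line. Points are genes, black bars are medians and numbers of genes are in parentheses; the effectors have medians of −1.35 in HT29, −0.98 in HCT116 and 0.55 in SW480, and the ribosomal proteins 0.33, −0.68 and −0.44.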

How the data were processed

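The study measured transcript levels by RNA sequencing in 3 colorectal cancer lines, and the 2 HT29 libraries, grouped by their treatment labels, were compared. The submitters' processing notes name GRCh38 as the build and DESeq, STAR 2.5.2b and bcl2fastq 2.17 as tools. Counter, annotation and strand setting were not given in the sources used here, and values of overlapping, antisense and near-identical genes are uncertain for that reason. The values deposited are a normalised signal, and their steps show that the authors divided gene counts by a size factor per library. The table had 266314 rows for 13040 identifiers, of which 19 were repeated and left out. Dividing each HT29 column by its smallest step gave whole reads for 100% of values within 0.1 read. Listed genes had at least 21 reads over both libraries, and 1610 identifiers were blank in HT29. Symbols matched 11395 of 11411 genes, and GENCODE 29 gave positions, length and GC content of the longest transcript.

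Reads were scaled by TMM in edgeR 4.0.16 (R 4.3.3), with factors of 1.0002 for the BZW2 shRNA library and 0.9998 for the non-targeting shRNA library and a prior count of 2. Percentages, folds and their exact Clopper-Pearson 95% intervals use the reads without a prior, with depth as the total of listed reads times that factor. A difference of 2-fold was a fixed size and not a test. Length and GC trends were removed with lowess smoothing, and the scripts were tested on simulated data. Promoters are from RefSeq. Some single genes are not reported here.

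Members and gene lists were chosen with earlier results of these data known. Genes named are BZW2 and BZW1, the 25 lowest and 25 highest by the interval bound nearest no difference, up to 8 members of each list in the direction of its median and 2 in the other, and members whose role a pathway needs. Of the lists, 7 plus the replication-dependent histones were set aside and 25 described. Alternatives were library size alone, the deposited size factors, a prior count of 0.5, the deposited value plus 1, no filter, at least 20 CPM, trend removal and the interval bound.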

Additional observations from a re-analysis of the deposited data

Results flagged for a closer look

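The groups listed here had a median log2 ratio on the other side of 0 in another line under the same comparison of BZW2 shRNA with non-targeting shRNA, with both medians at least 0.3 from 0, a distance chosen after the data were seen. Other lists had medians of opposite sign nearer to 0 in one of the lines. With 1 library per hairpin and line, these differences between lines were not tested. Interferon-induced effectors had a median log2 ratio of −1.35 in HT29 and 0.55 in SW480. Cytosolic ribosomal protein genes had a median of 0.33 in HT29, −0.68 in HCT116 and −0.44 in SW480.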

How the results depend on the processing

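No paired analysis was possible because HT29 had 1 library per hairpin and no replicate numbers to share, and for the same reason no replicate could be left out. The counts of genes at least 2-fold lower and higher stayed within 1.5 times of 623 and 378 under other scalings, prior counts, filters and trend removal. Requiring the whole counting interval past 2-fold gave 375 lower and 181 higher genes. BZW2 was lower under every setting run. None of 50 single genes (BZW1 and the lowest and highest genes other than BZW2) turned its sign under any setting that gave it a value. List medians near 0 turned theirs for the mucin list with the deposited size factors and with the deposited value plus 1 (0.01 in both), the metallothionein list without the filter (−0.07), at 20 CPM (−0.11) and with trend removal (−0.04), the TGF-beta list at 20 CPM (0.01) and the HOX list with trend removal (−0.07). Trend removal moved 16 of these 50 genes, BZW1 among them (0.80), by more than their counting interval. The enterocyte median was −0.15 without the filter.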
